A study of Mus musculus with 5 samples.

Results

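Cells with endothelial markers of the freshly isolated mouse submandibular salivary gland were taken from the single-cell RNA-seq library of untreated gland tissue. A cell barcode was counted as a cell within the limits if it had at least 200 detected genes and at most 10% of its unique molecular identifiers (UMIs, each standing for 1 captured transcript) in mitochondrial genes. Of these, the cells with a UMI of at least 2 of 7 endothelial markers were taken as members. The markers were Pecam1, Cdh5, Kdr, Emcn, Flt1, Plvap and Egfl7. By this rule 135 of the 1552 cells within the limits were members, a share of 8.70% (exact 95% interval 7.34 to 10.2). Members were thus chosen by the UMIs of these 7 markers in the same library, so the levels of the markers, and of genes that accompany them, are a description and were not tested.

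The study compared salivary gland organoids (mSGOs), which are grown in Matrigel from dissociated gland cells, with each other and with the tissue of origin. All libraries came from the submandibular gland of C57BL/6 mice. Of the 3 libraries of 7-day organoids, 1 was non-irradiated and the other two had received a dose of 7 Gy at day 5, as photons or as protons. A further library held non-irradiated 11-day organoids, and the tissue library held non-irradiated fresh gland of female mice aged 8 to 12 weeks. The 11-day matrix listed 32285 genes against 31053 in each other library, so day was not its only difference from the 7-day organoids. Organoids came from 4 animals, and the number of animals behind the tissue is not given in the sources used here. Every group was 1 library, so no difference was tested, and every interval below covers counting error within these libraries only. Cells were dissociated, and 45000 propidium iodide-negative cells per library were sorted with no antibody against an endothelial protein before droplet loading.

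Endothelial cells line blood and lymphatic vessels and hold together through VE-cadherin junctions. They respond to vascular endothelial growth factors and angiopoietins, make the basement membrane on which they sit, and differ between arteries, capillaries, veins and lymphatics. In salivary glands a dense capillary bed surrounds acini and ducts and supplies the water for saliva.

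The tissue library held 13547 barcodes and 19792416 UMIs. Of these barcodes, 11597 had fewer than 200 detected genes and 398 more were over the mitochondrial limit. Transcripts of acinar secretory products made up 73.7% of the UMIs of the other 1417 cells within the limits and 44.5% of those of the members. They were therefore left out of the totals, and levels are given as CPM, the UMIs of a gene per 1000000 UMIs outside a list of acinar secretory genes, of which 25 of 28 were in the tissue library's gene list. Counts of 3′ ends do not scale with transcript length. Between 4 and 11 of the 1552 tissue cells shared a barcode with each organoid library, among them 1 member shared with the 7-day control and 1 with the proton library.

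Members differed widely in how many of the 7 markers they carried. A total of 47 cells had all 7 markers, 16 had 6 and 12 had 5, whereas 6 had 4, 17 had 3 and 37 had 2. Just outside the rule lay 161 cells with exactly 1 marker, and 1256 cells had none. The median UMI count of the 7 markers together was 31 in the 75 cells with 5 to 7 markers (range 7 to 99), 5 in the 23 cells with 3 or 4 (3 to 19), and 2 in the 37 cells with 2 (2 to 7). The counts thus fell into a large group with most markers and a group with few.

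**Figure D1:**
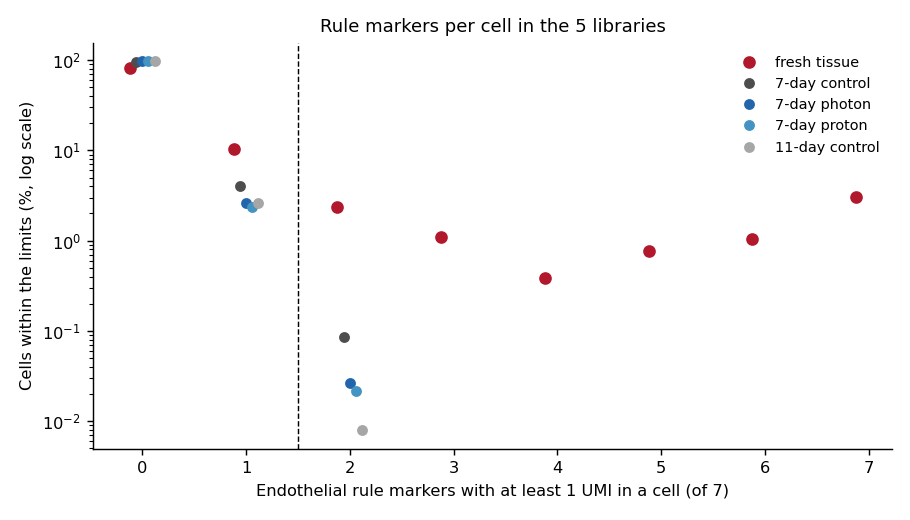
Percent of cells within the limits (y axis, log scale) by the number of the 7 rule markers with at least 1 UMI in the cell (x axis), for fresh tissue and the 4 organoid libraries; points at 0% are not drawn and the dashed line marks the rule. Only the tissue library held cells with more than 2 markers, with 3.03% of its cells at all 7.

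The same rule applied to the organoids measured how often it is met in epithelial cultures. It took 6 of 7084 cells of the 7-day control (0.0847%), 5 of 18958 after photons (0.0264%), 4 of 18415 after protons (0.0217%) and 1 of 12665 at 11 days (0.00790%). None of these 16 cells had more than 2 markers. Egfl7, which encodes a secreted protein of the vessel wall, was the marker most often seen in organoids, at 6.96 to 16.1 CPM over all cells with no genes left out of the totals, against 56.8 CPM in tissue. Cdh5, which encodes VE-cadherin, had 0 UMIs in all 4 organoid libraries and 183 UMIs in the tissue cells within the limits (26.6 CPM on the same scale, 22.9 to 30.8).

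The label was set beside 34 pan-endothelial genes that the rule did not use. This list was chosen with earlier results of these data known, so the counts describe the label and do not test it. All 75 cells with 5 to 7 markers had at least 5 of these genes, with a median of 19 and a range of 6 to 28. Cells with 3 or 4 markers had a median of 3 (0 to 10), and cells with 2 markers a median of 1 (0 to 8). Cells with exactly 1 marker had a median of 0 (0 to 9), and 4 of the 161 had at least 5. The 75 cells with 5 to 7 markers thus carried many of these genes together, whereas the cells with 2 markers lay close to the cells just outside the rule. The set of 135 is therefore called members, and not endothelial cells, below.

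The low-marker members also differed in complexity. Cells with 5 to 7 markers had a median of 1388 detected genes and 3588 UMIs, of which acinar secretory transcripts took a median of 19.1%. Cells with 2 markers had a median of 334 genes and a secretory share of 75.6%, against 276 genes and 77.7% in the other cells. The nuclear transcript Malat1 made up at least 1% of UMIs in 67 of the 75 cells with 5 to 7 markers (89.3%), in 2 of 23 with 3 or 4, in 0 of 37 with 2 (which allows a share of up to 8.11%) and in 144 of the 1417 other cells (10.2%). All members are kept in the sums below. The 75 cells supplied 79.9% of the members' UMIs outside the secretory list.

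**Figure D2:**
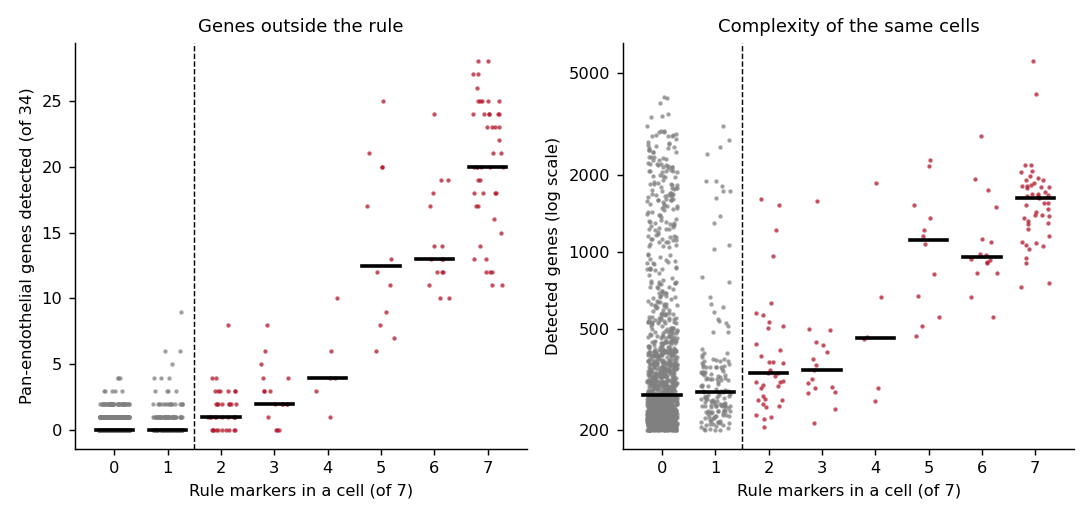
Number of pan-endothelial genes detected per cell out of 34 (left) and number of detected genes per cell (right, log scale) against the number of rule markers in the cell; each point is 1 tissue cell, members are red, and bars are medians. The pan-endothelial count had a median of 19 in the cells with 5 to 7 markers and stayed between 0 and 9 in every cell outside the rule.

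Clustering of all 1552 cells without the 7 markers and the secretory lists placed 69 members in 1 cluster that held no other cell, and 67 of them had 5 to 7 markers (89.3% of the 75). A second cluster of 98 cells held 34 members, 28 cells with 1 marker and 36 with none, with a median of 296.5 detected genes. The remaining 32 members were spread over 9 of the other clusters. Scrublet's automatic threshold called 0 doublets, so the 19 highest doublet scores were taken instead, by an assumed rate of 1.242%. They held 7 members, 3 of them with 5 to 7 markers.

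The markers themselves were led by Plvap, which encodes the diaphragm protein of fenestrated capillaries, at 2627 CPM in the members (exact Poisson interval 2451 to 2812) and 38.0 CPM in the other cells (29.2 to 48.6). It was seen in 116 of the 135 members. Flt1 and Kdr, the receptors 1 and 2 of vascular endothelial growth factor, stood at 1596 and 1069 CPM in the members and at 10.2 and 6.02 in the other cells. Pecam1, an adhesion molecule of endothelial junctions, was at 1523 against 10.2 CPM. Emcn, a sialomucin of capillary and venous endothelium, was at 1329 against 20.5 CPM, Egfl7 at 1142 against 19.3 and Cdh5 at 560 against 4.22. In the cells with 2 markers the pairs were mostly drawn from Plvap, Emcn and Egfl7: Emcn with Plvap in 9 cells, Plvap with Egfl7 in 9, and Emcn with Egfl7 in 5. Pecam1 with Kdr and Pecam1 with Cdh5 were found together in 67 and 60 members and in none of the 2-marker cells.

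Promoters of endothelial genes are shown because ERG and FLI1, transcription factors of the ETS family that bind around a GGAA core, were among the pan-endothelial genes that were higher in the members. Erg had 27 UMIs in 21 members and 0 in the other cells, and Fli1 had 66 UMIs in 38 members and 21 UMIs in 19 other cells. RefSeq promoter sequences (GRCm38.p6) were at hand for 24 of the 41 rule markers and pan-endothelial genes. The 250 bases before each start were searched for AGGAAG on both strands (CTTCCT on the printed strand), with no second motif searched. At least 1 match was present for 17 of the 24 genes (70.8%), against 8734 of all 27025 genes with a promoter (32.3%). A gene with several starts counted once, with 1.25 windows per gene in the list and 1.22 over all genes. The capillary list had 3 of 7 genes with a match (42.9%) and the arterial list 3 of 9 (33.3%). The sequences below, written 5′ to 3′ on the strand of the gene with the matches in capitals, are the 3 with the most UMIs in the members among those with a match, and Kdr, the one with the most UMIs among those without. The Flt1 window is chr5:147726012-147726261 (minus strand), the Emcn window chr3:137340828-137341077 (plus strand), the Tm4sf1 window chr3:57301989-57302238 (minus strand) and the Kdr window chr5:75978456-75978705 (minus strand).
Flt1: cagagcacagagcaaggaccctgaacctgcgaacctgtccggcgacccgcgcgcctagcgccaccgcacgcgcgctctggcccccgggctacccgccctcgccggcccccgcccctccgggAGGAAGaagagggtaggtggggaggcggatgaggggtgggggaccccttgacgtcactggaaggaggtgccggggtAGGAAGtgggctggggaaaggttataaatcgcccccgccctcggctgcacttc
Emcn: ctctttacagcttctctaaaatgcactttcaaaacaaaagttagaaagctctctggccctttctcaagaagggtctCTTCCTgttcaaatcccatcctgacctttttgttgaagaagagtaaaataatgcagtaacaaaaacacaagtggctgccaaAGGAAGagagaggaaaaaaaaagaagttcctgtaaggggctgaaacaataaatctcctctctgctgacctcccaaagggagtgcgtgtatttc
Tm4sf1: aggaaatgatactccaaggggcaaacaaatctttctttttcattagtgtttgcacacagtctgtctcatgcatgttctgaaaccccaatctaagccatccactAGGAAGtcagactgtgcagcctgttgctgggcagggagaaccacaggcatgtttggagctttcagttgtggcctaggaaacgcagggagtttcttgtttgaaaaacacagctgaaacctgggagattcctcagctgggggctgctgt
Kdr: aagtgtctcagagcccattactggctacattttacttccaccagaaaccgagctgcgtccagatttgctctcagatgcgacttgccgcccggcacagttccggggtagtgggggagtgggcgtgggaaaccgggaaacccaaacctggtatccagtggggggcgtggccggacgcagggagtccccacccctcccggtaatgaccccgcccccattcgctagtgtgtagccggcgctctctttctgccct
Flt1 held 2 matches on the printed strand, Emcn 1 on each strand, Tm4sf1 1 and Kdr 0. A match is a description of these letters, and no binding was measured.

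Against the other 1417 cells, 10139 genes outside the markers and the secretory list had at least 10 UMIs in both sets together and were compared. A gene was called if its CPM differed at least 2-fold with the counting interval on the same side of 1. By this rule 1644 genes (16.2%) were higher and 704 (6.94%) were lower in the members, with a median log2 ratio of 0.11 over all genes compared. Higher calls were thus 70.0% of the calls, and the split moved with the totals. The share was 98.6% with the secretory transcripts kept, which left 63 genes called lower, 55.6% with the 50 transcripts most common in barcodes under the gene limit left out in place of the secretory list, and 62.9% under median-of-ratios scaling. Members were chosen in this same library, so these calls describe the cells and are not a test. Genes with 0 UMIs in a set were put at 3 counts, which makes their ratio a bound, and list medians include them at that bound.

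All 34 pan-endothelial genes were higher in the members, with a median log2 ratio of 5.11. Some of them also stand in lists described below, such as Tek, Tie1, Eng, Bmpr2, Esam, Sox17, Podxl, Cd34 and Icam2. Counts of different lists are therefore not independent. Ptprb, the vascular endothelial tyrosine phosphatase that associates with VE-cadherin, had 341 UMIs in 76 members and 6 UMIs in 6 other cells. Its log2 ratio was 7.88 (95% counting interval 7.09 to 9.69), and 70 of the 75 cells with 5 to 7 markers carried it. Tm4sf1, a tetraspanin-like membrane protein, was at 1228 CPM in the members and 39.2 CPM in the other cells (4.94, 4.59 to 5.37). Adgrl4, an adhesion receptor of vessels, was at 735 against 6.03 CPM (6.71, 6.03 to 8.01) and was found in 69 members and 9 other cells. Ramp2, which pairs with Calcrl to form the adrenomedullin receptor, was at 658 against 19.9 CPM (4.98, 4.51 to 5.63). In the cells with 2 markers Ptprb had 1 UMI, Adgrl4 had 0 and Ramp2 had 13.

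The 15 highest ratios were Cavin2, Ptprb, Sparcl1, Prex2, Podxl, Cyyr1, Cxcl12, Akap12, Cd93, Adgrl4, Ldb2, Esm1, Fgd5, Ednrb and Grrp1. Cavin2, which encodes a coat protein of caveolae, led with 317 UMIs in 71 members and 4 UMIs in the other cells (1008 against 2.41 CPM, log2 ratio 8.21, 7.34 to 10.6). Prex2, a guanine nucleotide exchange factor for Rac, had 69 UMIs in 38 members, all of them with 5 to 7 markers, and 1 UMI in the other cells (7.10, 5.98 to 13.8). Cd93, a lectin-like receptor of endothelium, likewise had 55 UMIs in 38 members with 5 to 7 markers and 1 UMI outside (6.78, 5.64 to 13.5). Ednrb, the endothelin receptor B, had 96 UMIs in 45 members and 4 in the other cells (6.49, 5.58 to 8.89).

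**Figure D3:**
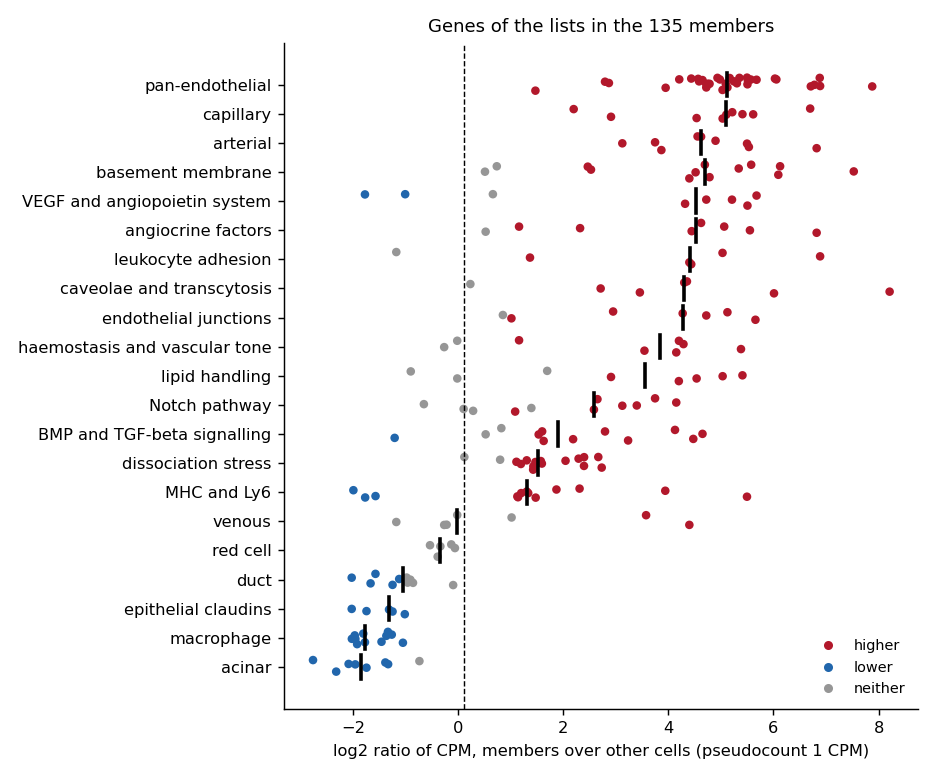
Log2 ratio of CPM between the 135 members and the 1417 other cells (x axis, pseudocount 1 CPM) for each gene of 21 lists with at least 10 UMIs in both sets together; colours give the call, black bars the list medians and the dashed line the median of all genes compared (0.11). All 34 pan-endothelial, 9 capillary and 9 arterial genes lay to the right, and the macrophage, acinar and duct lists to the left or near the dashed line.

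In the list of the vascular endothelial growth factor and angiopoietin system, receptors and ligands differed. Besides Flt1 and Kdr, all 5 receptor genes of the list were higher in the members. Nrp1, a co-receptor of vascular endothelial growth factor, was at 840 against 21.7 CPM (log2 ratio 5.21, 4.77 to 5.82). Tek, the angiopoietin receptor, had 74 UMIs in 45 members, all with 5 to 7 markers, and 6 in the other cells (5.68, 4.83 to 7.52). Its partner Tie1 had 57 and 5 UMIs (5.51, 4.61 to 7.59), and the second co-receptor Nrp2 had 40 and 9 (4.32, 3.49 to 5.78). Flt4, receptor 3, had 15 UMIs in 15 members and 0 in the other cells, and was at least 26.4-fold higher. Of the ligands, Vegfa (9 UMIs in the members and 97 in the other cells) and Vegfb (11 and 202 UMIs, log2 ratio -1.77) were lower in the members. Vegfa passed the 2-fold limit only just. Vegfc, Pgf and Angpt2 had 5, 1 and 2 UMIs in the members, under the minimum for comparison. Angpt1, a ligand of Tek, had 0 UMIs in the members and 10 outside and was called neither higher nor lower.

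Of the 11 Notch pathway genes compared, 7 were higher, 0 lower and 4 neither, with a median of 2.59. The receptor Notch1 had 30 UMIs in 22 members (95.4 against 15.1 CPM, 2.59, 1.85 to 3.49), and Notch4, the endothelial Notch receptor, had 12 UMIs against 2 (4.15). The ligand Dll4 had 14 UMIs in 9 members and 7 in the other cells (3.13, 2.00 to 4.95), and Jag2 13 and 5 (3.40, 2.20 to 5.62). The target Hes1 was at 130 against 60.9 CPM (1.09, 0.54 to 1.64), close to the 2-fold limit. It stood at 147 CPM in the cells with 5 to 7 markers. In those with 3 or 4 it was at 39.7 CPM (1 UMI) and in those with 2 at 79.1 CPM (3 UMIs). Jag1 and Notch2 were called neither higher nor lower, at 0.29 and 0.11.

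Of the 12 genes of bone morphogenetic protein and transforming growth factor-beta signalling compared, 9 were higher, 1 lower and 2 neither (median 1.91). Eng, the co-receptor endoglin, was at 372 against 13.9 CPM (4.65, 4.09 to 5.46). Bmpr2 was at 286 against 40.4 CPM (2.80, 2.35 to 3.30), and Acvrl1, the type I receptor ALK1, at 127 against 27.1 CPM (2.19). The target genes Id3 and Id1 stood at 919 and 385 CPM in the members and at 40.4 and 21.1 CPM in the other cells (4.48 and 4.13). Id2 went the other way, with 34 UMIs in the members and 416 outside (-1.21). The ligands Bmp2 and Bmp4 had 0 UMIs in the members. Bmp4 had 0 in the other cells too, and Bmp2 had 11 there and was called neither.

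Genes of vessel structure were mostly higher. Of 13 basement membrane genes compared, 11 were higher and 2 were neither (median 4.70). Col4a1 and Col4a2, the main chains of vascular collagen IV, stood at 1037 and 642 CPM against 13.9 and 8.44, and were seen in 71 and 63 members. Sparcl1, a matrix-binding glycoprotein, was at 1294 against 6.03 CPM (7.53, 6.85 to 8.82), and its relative Sparc at 1053 against 21.1 CPM (5.58, 5.14 to 6.19). The laminin chain Lama4 had 23 UMIs in the members and 0 outside, whereas Lama5 was called neither (4 and 12 UMIs). Of 7 caveolar and transcytosis genes, 6 were higher and 1 neither. Cav1, the caveolin that shapes caveolae, was at 452 against 6.03 CPM (6.01, 5.31 to 7.32), and the coat protein Cavin3 at 328 against 15.1 CPM (4.35, 3.80 to 5.14).

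Junction genes separated the endothelial from the epithelial set. Of 7 endothelial junction genes compared, 6 were higher and 1 neither. Esam was at 391 against 10.2 CPM (5.12, 4.52 to 6.08), Jam3 at 293 against 4.82 CPM (5.66, 4.89 to 7.18), and Jam2 at 321 against 15.7 CPM (4.27, 3.72 to 5.04). Cldn5, the claudin of endothelial tight junctions, was rare, with 15 UMIs in 7 members, all with 5 to 7 markers, and 0 outside. All 5 epithelial claudins compared were lower. Cldn10 was at 204 against 683 CPM (-1.74, -2.13 to -1.38), and 38 of its 64 UMIs in the members came from those with 2 to 4 markers. By number of markers, Cldn10 stood at 103 CPM in the cells with 5 to 7, 437 CPM in those with 3 or 4 and 712 CPM in those with 2, the last close to the other cells. Cldn7 was at 47.7 against 114 CPM (-1.25, -2.13 to -0.50), and Cldn3 at 105 against 213 CPM (-1.01, -1.58 to -0.50). Cldn3 was no longer lower when the secretory transcripts were kept in the totals (0.057), a scaling that moved the median of all genes from 0.11 to 1.06.

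Capillary genes were the most abundant vessel-bed genes. All 9 of those compared were higher (median 5.10). Fabp4, a fatty acid binding protein of capillary endothelium, was at 7035 CPM in the members (6744 to 7334) and 302 CPM in the other cells (276 to 329), and was the named gene with the most UMIs. Its UMIs were also seen in 253 of the other cells (17.9%). Among the 75 cells with 5 to 7 markers it was found in 74, with a median of 22 UMIs and a highest value of 90. Gpihbp1, which anchors lipoprotein lipase to capillary walls, was at 938 against 21.1 CPM (5.41, 4.97 to 6.03). Cd36, a fatty acid transporter, was at 487 against 63.9 CPM (2.91, 2.56 to 3.30), and Rgcc at 1695 against 368 CPM (2.20, 2.03 to 2.37). UMIs of Rgcc were also seen in 345 of the other cells (24.3%). Car4 and Cd300lg, both markers of capillary surfaces, had 124 and 145 UMIs in the members and 16 and 14 outside. Esm1, a proteoglycan known from angiogenic tip cells, had 59 UMIs in 15 members and 0 in the other cells, at least 104-fold higher, and 5 cells held 82.5% of those in the cells with 5 to 7 markers.

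Arterial genes were present in fewer cells. All 9 compared were higher (median 4.62). Cxcl12, a chemokine made by arterial and some capillary endothelium, was at 725 against 5.42 CPM (6.82, 6.11 to 8.21) in 50 members. Efnb2, the arterial ephrin, was at 137 against 8.44 CPM in 27 members (3.87, 3.12 to 5.00), and Sox17 at 98.6 against 1.21 CPM in 15 (5.50, 4.38 to 9.46). Gja4, which encodes the arterial connexin 37, had 26 UMIs in 8 members, and 5 of these cells held 88.5% of them.

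Of 7 venous genes compared, 2 were higher and 5 neither, with a median of -0.01. Ephb4, the venous ephrin receptor, had 17 UMIs in 17 members and 6 outside (3.58, 2.49 to 5.53). Sele, which encodes the leukocyte adhesion molecule E-selectin, had 12 UMIs in 3 members and 0 outside, so 3 cells decided its value. Csrp2 was called neither, at 89.0 against 104 CPM (-0.22, -0.85 to 0.36). Ackr1, a marker of postcapillary venules, had 0 UMIs in the members and 0 in the other cells. Of the 9 lymphatic genes, 8 had 0 UMIs in the members, Prox1 and Lyve1 among them, and the ninth was Flt4, which some fenestrated blood capillaries also express. The whole lymphatic list had only 11 UMIs in the other cells.

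Per cell, 74 of the 75 cells with 5 to 7 markers had at least 2 capillary genes (98.7%, 92.8 to 100), 30 had at least 2 arterial genes (40.0%, 28.9 to 52.0), 6 had at least 2 venous genes (8.00%, 2.99 to 16.6), and 0 had at least 2 lymphatic genes, which allows a share of up to 4.00%. In the other cells the shares were 8.96% for capillary, 0% for arterial and 0.776% for venous genes, at a median of 524 UMIs outside the secretory list against 2736 in the 75 cells. With at least 3 genes of a list, 72 cells were capillary and 17 arterial, and all 17 were among the 72. Because 72 of the 75 cells passed the capillary cut, this overlap was largely fixed in advance. It cannot show whether arterial and capillary cells form separate sets. Over all 135 members, 84.4% had at least 2 capillary genes and 24.4% at least 2 arterial genes. Each cell was then thinned to 500 UMIs outside the secretory list, which left out 14 of 135 members and 630 of 1417 other cells. After this, at least 2 capillary genes were found in 75.2% of the members and 5.34% of the other cells, and at least 2 arterial genes in 9.92% and 0%.

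**Figure D4:**
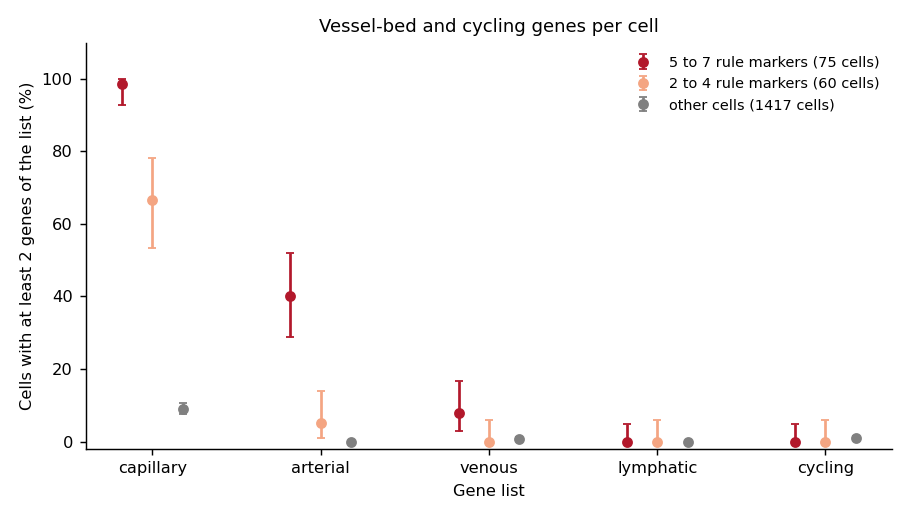
Percent of cells with at least 2 genes of each vessel-bed or cycling list (y axis) in members with 5 to 7 rule markers, members with 2 to 4 and the other tissue cells, with exact 95% binomial intervals for counting error. Capillary genes were found in 98.7% and arterial genes in 40.0% of the cells with 5 to 7 markers, and no member had 2 lymphatic or 2 cycling genes.

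Cycling genes were scarce. None of the 135 members had 2 of the 10 genes (a share of up to 2.22% is allowed), against 12 of the 1417 other cells (0.847%). The allowed share lies above that of the other cells, so the 0 does not set the members apart. At least 1 cycling gene was found in 5.93% of the members and 5.29% of the other cells, and in 0.826% and 3.68% after thinning to 500 UMIs. After thinning 0 cells of either set had 2. Mki67 and Birc5 had 0 UMIs in the members and 54 and 38 outside. Of 7 cycling genes compared, 0 were higher, 3 lower and 4 neither.

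Genes of haemostasis and vascular tone were higher in 6 of 8 compared and neither in 2 (median 3.85). Klf2, a transcription factor known to respond to blood flow, was at 2067 against 105 CPM (4.29, 4.06 to 4.55), and Klf4 at 461 against 38.6 CPM (3.55, 3.15 to 4.03). Thbd, the anticoagulant receptor thrombomodulin, was at 242 against 4.82 CPM (5.38, 4.60 to 6.91), and Ece1, which activates endothelin, at 394 against 20.5 CPM (4.20, 3.71 to 4.86). Vwf, the von Willebrand factor gene used as a marker of larger vessels, had 2 UMIs in the members and 13 outside.

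Of 8 angiocrine genes compared, which encode factors that endothelium sends to its neighbours, 7 were higher and 1 neither (median 4.53). Igfbp7, an insulin-like growth factor binding protein of the vessel wall, was at 5693 against 169 CPM (5.06, 4.89 to 5.26) and was the only named gene seen in all 75 cells with 5 to 7 markers. Igfbp3 was at 668 against 13.3 CPM (5.55, 5.02 to 6.36). Kitl, the ligand of the receptor Kit, was at 598 against 26.5 CPM (4.44, 4.02 to 5.00), and Pdgfb, which recruits pericytes, had 42 UMIs in the members and 43 outside (2.32). Hgf, Wnt2 and Apln had 0 UMIs in the members, and Apln had 0 in the other cells too.

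Of 8 genes of lipid handling, 5 were higher and 3 neither (median 3.56). Fabp4, Gpihbp1 and Cd36 of this list are also capillary genes and were counted there too. Scarb1, a lipoprotein receptor, had 96 UMIs in the members and 26 outside (4.20), whereas Fabp5 was called neither, at 347 against 350 CPM (-0.01, -0.32 to 0.28), and so was Lpl (9 and 90 UMIs, -0.90). Of 6 leukocyte adhesion genes compared, 5 were higher, among them the pan-endothelial genes Podxl, Cd34 and Icam2. Podxl, a sialomucin of the luminal surface, was at 474 against 3.01 CPM (6.89, 6.04 to 8.94), Cd34 at 445 against 12.7 CPM (5.03, 4.47 to 5.87) and Icam2 at 216 against 9.04 CPM (4.44, 3.76 to 5.49). Icam1 was at 73.1 against 27.7 CPM (1.37, 0.61 to 2.15). Vcam1 had 1 UMI in the members and was called neither, and the mucosal addressin Madcam1 had 0.

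The list of major histocompatibility complex and Ly6 genes had 10 higher and 3 lower of 13. H2-D1 and B2m, the heavy and light chain of class I, stood at 2687 and 2121 CPM against 1218 and 922 CPM in the other cells. Ly6a, a surface protein of many endothelial cells, was at 2376 against 154 CPM (3.94, 3.74 to 4.16), and Ly6c1 had 527 UMIs against 60 (5.50). The 3 lower genes were the class II genes Cd74, H2-Aa and H2-Ab1, which antigen-presenting cells express. Cd74 was at 3202 against 10897 CPM (-1.77, -1.86 to -1.68). It stood at 1404 CPM in the cells with 5 to 7 markers, but at 11512 CPM in those with 3 or 4 and 9598 CPM in those with 2, about the level of the other cells, and these low-marker members held 654 of its 1007 UMIs. Within the 75 cells with 5 to 7 markers 5 cells held 93.2% of its UMIs.

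Of 16 dissociation stress genes, immediate early and heat shock genes known to be induced during tissue digestion, 14 were higher and 2 neither, with a median of 1.52. Jun was at 4417 against 1070 CPM (2.05, 1.94 to 2.15), Fos at 4611 against 1526 (1.60, 1.50 to 1.69), Hspa1a at 3438 against 516 (2.73, 2.60 to 2.87) and Hspa1b at 2000 against 314 (2.67, 2.50 to 2.84). Klf2 and Klf4 are also inducible genes of this kind, and the part of digestion in any of these levels was not tested. Fos was in 59 of the 75 cells, with 5 cells holding 32.1% of its UMIs. In the cells with 5 to 7 markers Fos and Jun stood at 5546.5 and 5411.2 CPM. They stood at 953 and 437 CPM in those with 3 or 4 markers and at 844 and 475 CPM in those with 2, below the other cells. Hspa1b was also below the other cells in both low-marker sets (0 and 264 CPM), whereas Hspa1a was above them (873 and 897 CPM).

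Markers of other cell types in the members were counted to describe what else the barcodes held. At least 2 of 12 macrophage markers were found in 30 of the 135 members (22.2%) and 489 of the 1417 other cells (34.5%). The share was 45.9% in the members with 2 markers, 21.7% in those with 3 or 4 and 10.7% in those with 5 to 7. At least 2 duct markers were found in 40.5%, 17.4% and 21.3% of these sets, and at least 2 acinar markers in 48.6%, 26.1% and 20.0%. No member had 2 markers of fibroblasts, platelets, T and NK cells or B and plasma cells, and 1 had 2 markers of pericytes and smooth muscle. The pericyte genes Pdgfrb and Cspg4 and the collagen genes Col1a1, Col1a2 and Col3a1 had 0 UMIs in the members. They were scarce in the whole library, with 0 UMIs of Pdgfrb and Cspg4 in the other cells, 1 of Col1a1, 7 of Col1a2 and 4 of Col3a1. Mcam, which endothelium also expresses, was the 1 higher gene of the 4 pericyte and smooth muscle genes compared, with 13 UMIs against 1 (4.72, 3.37 to 11.5).

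Summed over the list, macrophage markers stood at 1997 CPM in the members and 6623 CPM in the other cells, and at 844 CPM in the 75 cells. All 11 macrophage genes compared were lower in the members, with C1qa at 382 against 1304 CPM (-1.77, -2.05 to -1.51). Of 8 acinar genes 7 were lower, with the water channel Aqp5 at 204 against 792 CPM (-1.95, -2.35 to -1.60) and the calcium-activated potassium channel Kcnn4 at 102 against 434 CPM (-2.08, -2.65 to -1.58). Of 10 duct genes 5 were lower and 5 neither, with Krt18 at 413 against 1230 CPM (-1.57, -1.84 to -1.32). In these lists too the cells with 2 markers lay nearer to the other cells, with C1qa at 1055 CPM, Aqp5 at 659 CPM and Krt18 at 1134 CPM, against 195, 115 and 298 CPM in the cells with 5 to 7 markers. All 5 red cell genes were neither higher nor lower, with Hbb-bs at 5686 against 5921 CPM (-0.06). The low-marker members carried the value of Hbb-bs, which stood at 31280 CPM in the cells with 3 or 4 markers (788 UMIs in 12 cells), 7647 CPM in those with 2 and 2825 CPM in those with 5 to 7. Taken alone, the cells with 5 to 7 markers had a log2 ratio of -1.07 for Hbb-bs and a median of -1.07 over the 5 red cell genes, an alternative chosen after seeing the data. At least 2 red cell genes were found in 8.00% of the 75 cells and 30.6% of the other cells. Hbb-bs reached 620 UMIs in 1 of the 75 cells, and 14 of the 75 carried it. Of 7 T and NK genes compared 3 were lower, and Dcn was the 1 fibroblast gene compared and was lower. Of the platelet list only Pf4 was compared. It was higher, with 18 UMIs in 9 members, 13 of them in the cells with 2 markers.

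The 10 lowest ratios were S100a9, Ccl5, Nkg7, S100a8, Ccl28, Fcgr3, Retnlg, Gzmb, Sorl1 and Xcl1. S100a9, S100a8 and Retnlg are neutrophil genes, and they had 1, 0 and 0 UMIs in the members and 311, 293 and 206 in 4 to 8 of the other cells. Ccl5, Nkg7, Gzmb and Xcl1 are genes of cytotoxic lymphocytes, with 1, 1, 2 and 2 UMIs in the members and 270, 147, 142 and 103 outside. Ccl28, an epithelial chemokine of salivary glands, had 1 UMI in the members and 121 in 85 other cells.

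The members were also set against 2 classes of the same library. Against the 302 cells with at least 2 macrophage markers and fewer than 2 duct or T and NK markers, 6782 genes were compared and 1629 (24.0%) were higher. Against the 430 cells with at least 2 duct markers and fewer than 2 macrophage or T and NK markers, 8441 genes were compared and 1518 (18.0%) were higher. Cells with acinar or red cell markers were left in both classes. The acinar gene Aqp5 stood at 1172 CPM in the duct class and 327 CPM in the macrophage class, against 792 CPM in all other cells. All 34 pan-endothelial genes were higher in both comparisons, with medians of 4.66 and 5.29. H2-D1 and B2m were higher than in the duct class and neither higher nor lower than in the macrophage class. Of the 16 dissociation stress genes, 13 were higher than in the macrophage class and 11 than in the duct class. Fos and Hes1 were higher than in the macrophage class. Against the duct class both were called neither (0.88, 0.78 to 0.98, and 0.67, 0.06 to 1.28). Cd74 and C1qa were lower than in the macrophage class and higher than in the duct class, from which cells with 2 macrophage markers had been left out while members with them were kept. Both classes had few detected genes, with medians of 304 and 332.5. Only 2 cells had at least 2 T and NK markers and fewer than 2 macrophage or duct markers, so no comparison with them was made.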

How the data were processed

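The authors deposited, for each of the 5 libraries, a matrix of UMI counts per gene and barcode made with Cell Ranger version 5 against mm10 per the labels, from 10x 3′ libraries. The study's methods name GRCm39 instead, and the matrix headers name software versions 3.0.1 and 7.0.0, so no coordinate was taken from the deposited counts. These matrices held barcodes with few genes, and no cell annotation was used.

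Counts were read in Python 3.11.15 with numpy 2.4.6, scipy 1.17.1 and pandas 2.3.3. Barcodes were kept at 200 or more detected genes and at most 10% mitochondrial UMIs. UMIs were summed over the members and over the other cells and scaled to CPM after the acinar secretory list was left out. Ratios are log2 with 1 CPM added, with conditional exact binomial 95% intervals, CPM with exact Poisson intervals and shares with exact Clopper-Pearson intervals. For a share of 0 the text gives the limit of 3 counts over the cells, whereas the plot of vessel-bed genes draws the exact interval, whose upper end lies higher. All cover counting error only, because each group is 1 library, and no p-value was computed. Genes needed 10 UMIs in both sets together, and a count of 0 was put at 3 counts. The comparison was tested on simulated data.

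Members, gene lists and comparisons were chosen with earlier results of these data known. The genes named are the 7 markers, up to 4 genes per list with the most UMIs in the members, and the 15 highest and 10 lowest ratios. The highest needed 20 UMIs in the members and a UMI in 10% of them, and the lowest 100 UMIs in the other cells. Other genes named, such as list members at 0 or called neither, were added after their values were seen. The promoter motif was also chosen after the values were seen. Cells were clustered with scanpy 1.11.5 and leidenalg 0.10.2 at resolution 0.8, and doublets were scored with Scrublet, kept in the sums and left out in an alternative. Alternatives changed the cell limits, the marker minimum, the totals, the weighting, the pseudocount, the UMI minimum and the depth per cell.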

Additional observations from a re-analysis of the deposited data

Results flagged for a closer look

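Endothelial markers were also found in tissue barcodes that the cell limits leave out. Of 11995 such barcodes, 22 had a UMI of at least 2 of the 7 markers (0.183%, exact 95% interval 0.115 to 0.278), of which 12 had fewer than 200 detected genes and 10 were over the mitochondrial limit. They carried a median of 3.5 and at most 25 of the 34 pan-endothelial genes. In the 4 organoid libraries 0 barcodes outside the limits met the marker rule. The share among the cells within the limits was 8.70%.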

How the results depend on the processing

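With 1 library per group no replicate could be left out. No paired analysis was possible because each group was 1 library. The number of members was 135, and it became 87 with at least 500 detected genes, 98 with at least 3 markers, 84 without members that carried markers of another class and 75 with at least 5 markers, the last chosen after seeing the data. Genes higher and lower numbered 1644 and 704. They became 4293 and 63 with the secretory transcripts kept in the totals, 710 and 179 with cells thinned to 500 UMIs, and 2978 and 1959 with cells weighted equally, where calls were made by fold alone. Higher calls made up 57.1% of calls with at least 500 genes, 79.9% after thinning and 60.3% with cells weighted equally. Median-of-ratios scaling gave 1462 higher and 862 lower, and leaving out the 50 background transcripts in place of the secretory list 1313 and 1047. The capillary median of 5.10 became 6.40 with at least 500 genes and 4.07 after thinning, and the pan-endothelial median of 5.11 became 4.25 with cells weighted equally. Members in the cluster that held most of them went from 69 to 101 at resolution 0.4, where that cluster also held 40 other cells. Values turned for Cldn3 (0.057, secretory transcripts kept), Sorl1 (0.20, thinned) and the fibroblast list (median 1.18, no minimum of UMIs). Over 14 alternatives, 95 of the 97 named genes called kept their direction. This count includes the 7 markers, which the rule made higher, and the 15 highest and 10 lowest ratios, picked by size. It is therefore no independent support. Of 389 list medians over the same alternatives, 335 stayed within a range set by the list's genes, 53 fell outside it and 1 turned. The range ran from the median of the genes' lower limits to the median of their upper limits. It is not an interval for the list median. The lymphatic list had no finite upper end and the cycling list no finite lower end. The count of 335 is therefore a loose measure and does not show how stable the medians were. The causes were not tested. Cells with 2 markers had a median of 334 detected genes, which limits what was detectable in them.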
